A study of Mus musculus with 12 samples.

Results

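The skeletal muscle contractile genes are a set of 42 genes whose proteins build the contractile fiber of skeletal muscle, start its contraction by calcium release or fuel it. They were read by symbol from a count table of 55487 gene identifiers made from 12 mouse melanoma tumors, and all 42 were found. The comparison asks how loss of Arf6, a small GTPase of membrane traffic, changes the tumor's gene expression, with 6 Arf6-null tumors (genotype BrafCA;Cdkn2af/f;Arf6f/f) set against 6 wild-type tumors (genotype BrafCA;Cdkn2af/f). All 12 tumors therefore share the BrafCA allele and floxed Cdkn2a. The labels used here name no age, sex, Cre driver, tumor site or animal, so the tests weigh genotype differences by the spread among these samples, which may not come from separate animals.

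Skeletal muscle fibers contract when myosin heads of the thick filament pull on actin of the thin filament. Calcium released from the sarcoplasmic reticulum binds troponin C and frees the actin sites, and pumps and buffers then take the calcium away again. Fast and slow fibers use different genes for most of these jobs: slow fibers use Myh7, Myl2, Myl3 and the troponins Tnnt1, Tnni1 and Tnnc1, and fast fibers use Myh1, Myh2, Myh4, Mylpf, Myl1, Tnnt3, Tnni2 and Tnnc2.

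Among the genes of the set with a promoter entry, the 3 with the highest mean CPM over all libraries are Acta1 (skeletal alpha-actin), Atp2a1 (the calcium pump of fast fibers) and Des (desmin), and their promoters are shown by that order. Each is the 250 bases upstream of the gene's start in the RefSeq promoter entry, with build GRCm38.p6. They lie at chr8:123894776-123895025 on the minus strand for Acta1, chr7:126463074-126463323 on the minus strand for Atp2a1 and chr1:75360042-75360291 on the plus strand for Des. The gene positions used elsewhere here put the starts at 123894751 (Acta1), 126463108 (Atp2a1) and 75360329 (Des). The windows do not adjoin those starts, so the distance of a motif from the start is uncertain. They read 5′ to 3′ in lower case, and capitals mark matches to the E-box CANNTG, to TATAAA and to the CArG box bound by serum response factor.
Acta1: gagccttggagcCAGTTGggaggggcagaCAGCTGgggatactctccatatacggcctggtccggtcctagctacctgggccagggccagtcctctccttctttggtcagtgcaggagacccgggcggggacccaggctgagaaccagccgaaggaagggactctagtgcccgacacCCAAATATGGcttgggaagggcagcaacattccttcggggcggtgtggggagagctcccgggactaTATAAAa
Atp2a1: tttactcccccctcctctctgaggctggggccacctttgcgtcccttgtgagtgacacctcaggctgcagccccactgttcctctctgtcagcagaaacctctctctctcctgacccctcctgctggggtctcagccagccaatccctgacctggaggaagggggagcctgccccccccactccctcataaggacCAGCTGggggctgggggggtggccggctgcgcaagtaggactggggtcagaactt
Des: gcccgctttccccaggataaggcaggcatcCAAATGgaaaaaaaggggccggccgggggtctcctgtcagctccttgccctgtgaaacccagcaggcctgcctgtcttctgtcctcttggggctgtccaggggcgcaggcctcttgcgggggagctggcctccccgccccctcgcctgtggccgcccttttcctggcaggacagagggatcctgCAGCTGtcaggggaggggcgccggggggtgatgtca

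Promoter entries were matched for 34 of the 42 genes and not for Actn3, Jsrp1, Myoz1, Neb, Tcap, Tnni2, Tnnt3 and Trdn. Searched on both strands, the E-box occurred in 35 of the 40 windows of these genes (87.5%) and in 66.22% of 32851 windows of all genes. TATAAA occurred in 15.0% of the windows of the set and 12.37% of all windows. The binding sequence of MEF2, a muscle transcription factor, was found in 17.5% of the windows of the set against 2.919% of all, and the CArG box in 7.5% against 1.467%. Of the promoters printed above, Acta1 holds E-boxes, the CArG box and TATAAA, and Atp2a1 and Des hold only E-boxes among the motifs searched. A match describes letters in the window and is no evidence of binding.

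Arf6 itself, on chromosome 12, averaged 18.3 ± 3.73 CPM (counts per library scaled to the same total) in Arf6-null tumors and 111 ± 24.9 CPM in wild-type tumors (SD, n = 6 each). On the log2 scale, Arf6-null over wild type, the fold change was -2.60, with a SE of 0.18 and an adjusted p of 0.000101 by the quasi-likelihood test of edgeR. Totals ran from 21007954 to 45688253 counts in the Arf6-null libraries and from 22211738 to 30326419 in the wild-type libraries. Library numbers were 19 to 24 in Arf6-null and 1 to 6 in wild type, so anything that differs between these runs of numbers cannot be told apart from the genotype. Of the pigment cell markers, Mlana had 0 counts in every library, and Tyr, Tyrp1 and Dct had at most 2 counts in any. Mitf, the lineage's transcription factor, lay between 8.95 and 30.1 CPM in Arf6-null and between 10.1 and 28.3 CPM in wild-type tumors. Of 7 pigment cell genes listed, 2 were tested and 0 called (Mitf and Pmel, log2 fold changes -0.03 and 0.08).

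The muscle signal was unevenly spread over the tumors. Summed over the 42 genes, the Arf6-null tumors 1 to 6 had 32.8, 166, 49.1, 142, 154 and 68.1 CPM, and the wild-type tumors 1 to 6 had 127, 87.7, 4180, 2592, 5751 and 428 CPM. Wild-type tumors 3, 4 and 5 stood above all others, wild-type tumor 6 came next, and wild-type tumors 1 and 2 lay within the Arf6-null range. As a share of all counts the set took from 0.00311% (95% exact Clopper-Pearson interval 0.00287% to 0.00336%) to 0.0160% in Arf6-null libraries and from 0.00874% to 0.589% (0.586% to 0.592%) in wild-type libraries, and these intervals cover counting error only. In bulk tumor RNA, fewer muscle cells and less muscle RNA per cell cannot be told apart. Every gene of the set was highest in one of these 3 wild-type tumors, 15 in tumor 3, 5 in tumor 4 and 22 in tumor 5. For 36 of the 42 genes all 3 of these tumors exceeded every other library. Among the 40 genes of the set that passed the low-count filter the number was 35, while 1.53% of all 16225 genes tested had that pattern.

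**Figure D1:**
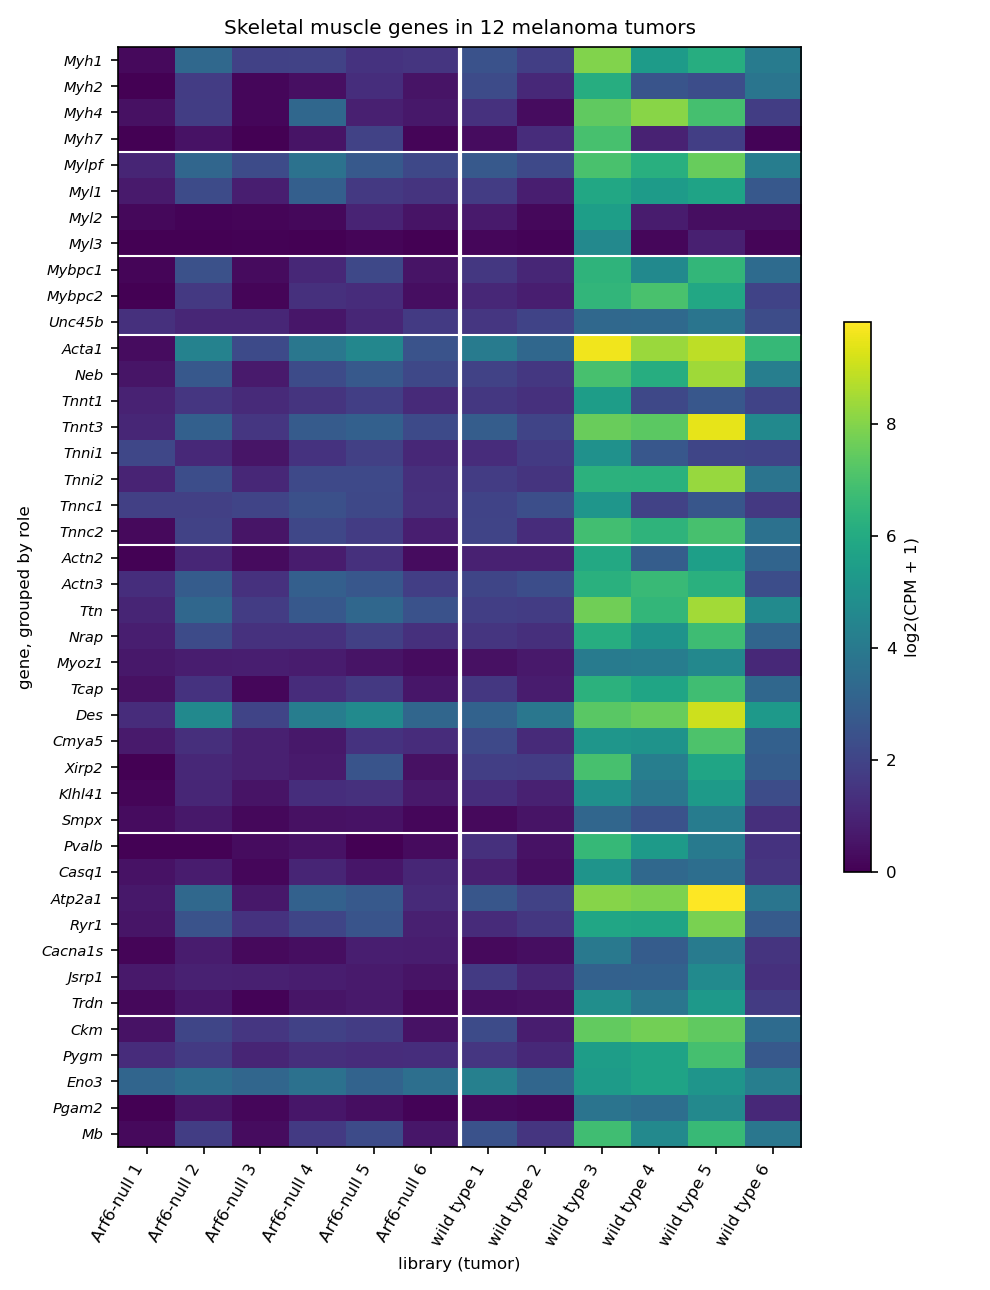
Level of the 42 skeletal muscle genes (rows, grouped by role from myosin heavy chains at the top to energy genes at the bottom) in each library (columns, Arf6-null left and wild type right of the white line), as log2(CPM + 1). Wild-type tumors 3, 4 and 5 are bright across nearly all rows, and Arf6-null tumor 1 is the darkest, with a sum of 32.8 CPM.

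Across genotypes, 4 of the 40 tested genes passed the threshold of 0.05 on the adjusted p, all lower in Arf6-null tumors, while 0.561% of all genes tested were called lower. They were Pvalb, Cmya5, Unc45b and Jsrp1. None was called higher. All 40 had a negative log2 fold change, from -7.22 to -1.54 with a median of -4.45, where 52.8% of all genes were negative and the median of all genes was -0.03. The adjusted p-values lay close together, between 0.0392 and 0.192 (edgeR), and 36 of 40 were under 0.1, compared with 4.43% of all genes. The low-count filter asked for about 0.342 CPM in 6 libraries. It was met in all 6 Arf6-null libraries by 20 of the 40 genes and in fewer by the other 20, whereas 33 met it in all 6 wild-type libraries. The slow light chains Myl2 and Myl3 did not pass it and were not tested. Calls in the set and over all genes both depended on single libraries. Without wild-type tumor 2, 35 of 41 genes of the set were called (2.32% of all genes lower). There were 5 without wild-type tumor 5 (1.71%) and 4 without Arf6-null tumor 6 (2.11%). Leaving out any other single library left 0, with 0.0546% to 0.391% of all genes called lower.

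A further fit left out wild-type tumors 3, 4 and 5 and was chosen after seeing the data. These tumors have the highest sums of the same genes, so leaving them out had to shrink the differences, and 3 wild-type tumors remained. In that fit 0 of 41 genes were called (edgeR, 0.124% of all genes called lower, adjusted p of the genes tested in both fits 0.186 to 0.972). Of the 40 log2 fold changes, 37 stayed negative with a median over the 40 of -1.07, and Myh4 (0.59), Myh7 (0.20) and Actn3 (0.12) turned positive. A difference of at least 2-fold in the same direction was left in 20 genes. The median summed level was 105 CPM in Arf6-null tumors, against 1510 CPM in all 6 wild-type tumors and 127 CPM in wild type without these 3.

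**Figure D2:**
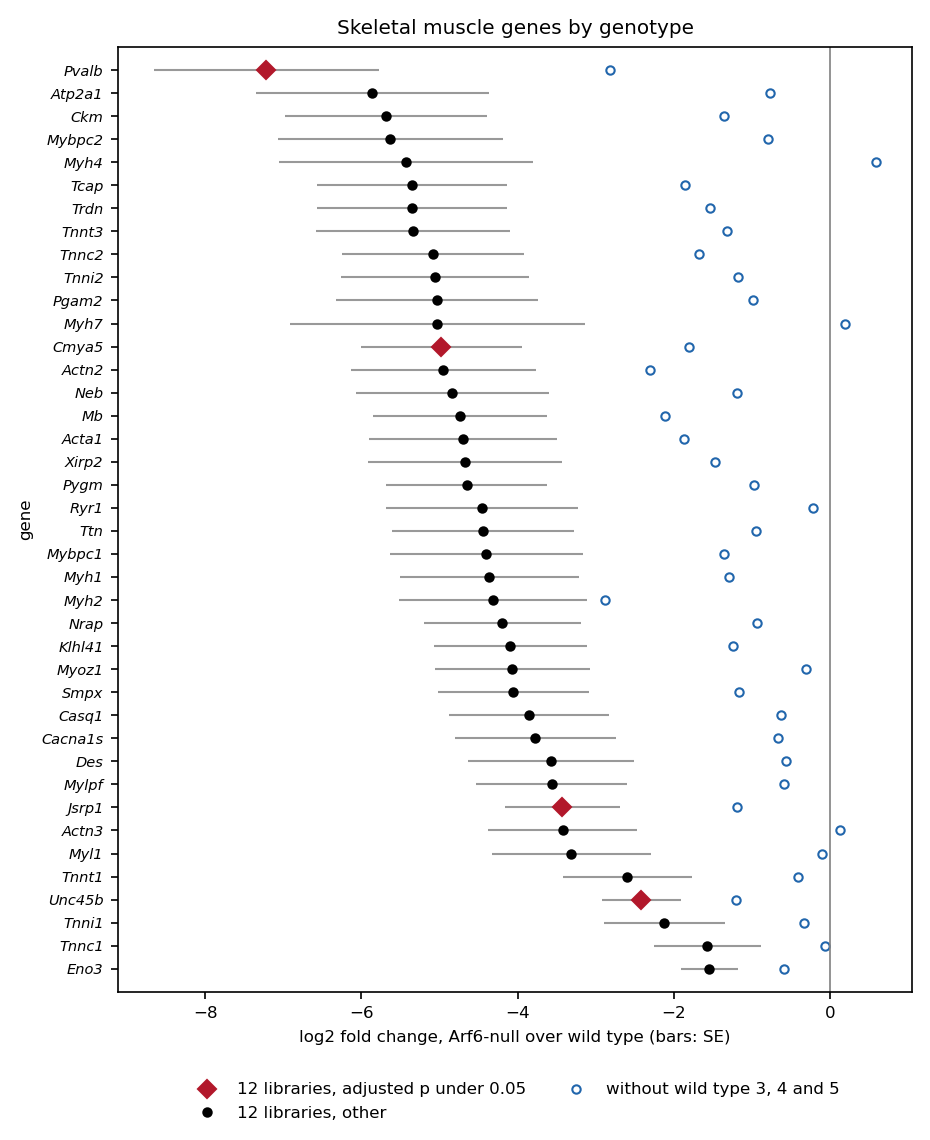
Log2 fold change of the 40 tested genes, Arf6-null over wild type, with all 12 libraries (filled symbols, bars are SE, red diamonds adjusted p under 0.05) and without wild-type tumors 3, 4 and 5 (open circles). All filled symbols lie between -7.22 and -1.54, and the open circles lie closer to 0, with Myh4, Myh7 and Actn3 above it.

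Pvalb encodes parvalbumin, the calcium buffer of fast fibers, and had the most negative log2 fold change of all 16225 genes, measured against Arf6-null libraries of which only tumor 4 reached the minimum of the low-count filter, so that it passed that filter through the wild-type tumors. It lies on chromosome 15 at 78191114 to 78206400 of GRCm38. Its level in Arf6-null tumors had a lowest value of 0.0226, a median of 0.143 and a highest of 0.396 CPM, and in wild-type tumors it had a lowest value of 0.397, a median of 8.59 and a highest of 95.4 CPM. The groups did not overlap, but the gap between the highest Arf6-null and the lowest wild-type library was minimal. This amounted to a log2 fold change of -7.22 with a SE of 1.44 (edgeR adjusted p = 0.0392), on 34 counts over the Arf6-null and 3964 over the wild-type libraries. Without wild-type tumors 3, 4 and 5 it was -2.82 (edgeR adjusted p = 0.186), and it stayed called in 3 of the 12 fits that leave out 1 library.

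Jsrp1 encodes a protein of the junction between the surface membrane and the sarcoplasmic reticulum, and was the other gene of the set whose groups did not overlap, a pattern shown by 1.21% of all genes tested. It ranged from 0.418 to 0.871 CPM with a median of 0.691 in Arf6-null tumors, and from 1.03 to 25.04 CPM with a median of 4.69 in wild-type tumors. Wild-type tumor 5 was far above the rest. Jsrp1 had a log2 fold change of -3.43 with a SE of 0.74 (edgeR adjusted p = 0.0491), and of -1.20 without the 3 muscle-rich wild-type tumors (edgeR adjusted p = 0.186).

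Cmya5 encodes myospryn, a large protein of the costamere and Z-disc region. Its lowest, median and highest levels were 0.561, 1.08 and 1.74 CPM in Arf6-null tumors and 1.257, 19.6 and 133 CPM in wild-type tumors. The groups overlapped at wild-type tumor 2. Over all tumors Cmya5 changed by -4.98 in log2 with a SE of 1.03 (edgeR adjusted p = 0.0440), and by -1.81 without the 3 tumors (edgeR adjusted p = 0.205).

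Unc45b, the chaperone that folds the myosin head, had the smallest fold change of the 4. Its lowest, median and highest levels were 0.495, 1.08 and 2.22 CPM in Arf6-null tumors and 1.95, 6.38 and 13.2 CPM in wild-type tumors. Only the highest Arf6-null tumor, number 6, and the lowest wild-type tumor, number 1, overlapped. Unc45b changed by -2.42 in log2 with a SE of 0.51 (edgeR adjusted p = 0.0448), and by -1.21 without the 3 tumors (edgeR adjusted p = 0.255). Cmya5, Unc45b and Jsrp1 were each called in 3 of the 12 fits that leave out 1 library. Exons of Unc45b share 255 bases with Unc45bos and 151 with Slfn5os on the opposite strand. Those of Cmya5 share 2451 bases with A630019I02Rik and 119 with Gm4814, also on the opposite strand. Without the counter's strand setting such reads cannot be told apart.

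The 4 myosin heavy chains, motors of the thick filament, did not pass the test. Myh1, of type IIx fibers, reached 9.05 CPM in the highest Arf6-null tumor and 249 CPM in the highest wild-type tumor (log2 fold change -4.36 with SE 1.14, edgeR adjusted p = 0.0670). Myh2, of type IIa fibers, reached 2.37 and 69.2 CPM, with a log2 fold change of -4.31. Both peaked in wild-type tumor 3, whereas Myh4, of the fastest type IIb fibers, peaked in wild-type tumor 4. Myh4 was at 0.352, 2.42, 0.119, 8.72, 0.836 and 0.549 CPM in Arf6-null tumors 1 to 6 and at 1.67, 0.265, 170, 267, 121 and 2.43 CPM in wild-type tumors 1 to 6. Its difference in log2 was -5.43 with a SE of 1.63 (edgeR adjusted p = 0.0850), with wild-type tumors 1, 2 and 6 inside the Arf6-null range. Myh1, Myh2 and Myh4 lie side by side on chromosome 11 between 67171027 and 67260446 of GRCm38 and are near-identical in sequence over long stretches, as are Myh7 and the cardiac Myh6, so how reads are split between them is uncertain.

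Myh7, the slow myosin heavy chain, was above 100 CPM in a single tumor. It was at 0, 0.411, 0, 0.429, 2.85 and 0.105 CPM in Arf6-null tumors 1 to 6 and at 0.239, 1.39, 124, 0.920, 2.50 and 0.0694 CPM in wild-type tumors 1 to 6. Arf6-null tumor 5 held 126 of the 160 Arf6-null counts, and wild-type tumor 3 held 2908 of the 3053 wild-type counts. For Myh7 the log2 fold change of -5.03 had a SE of 1.89, the widest of the set (edgeR adjusted p = 0.143).

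The mix of heavy chains differed from tumor to tumor. Per length, as TPM (counts per exon length, scaled to a common total, computed here) over the 4 heavy chains, Myh4 took 72.7% in Arf6-null tumor 4, Myh1 took 64.6% in Arf6-null tumor 2, and Myh7 led in Arf6-null tumor 5 with 35.2%. These shares rest on 373, 589 and 302 counts. In wild-type tumor 3, Myh1 took 42.8%, Myh4 30.9%, Myh7 15.7% and Myh2 10.6% of heavy chain TPM. Myh4 took 85.9% in wild-type tumor 4, and in wild-type tumor 5 it took 63.1% with Myh1 at 34.2%. Wild-type tumor 6 was different again, with 52.9% Myh1 and 38.4% Myh2. Counts behind the shares of wild-type tumors 3, 4 and 5 were 14377, 9537 and 5290.

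**Figure D3:**
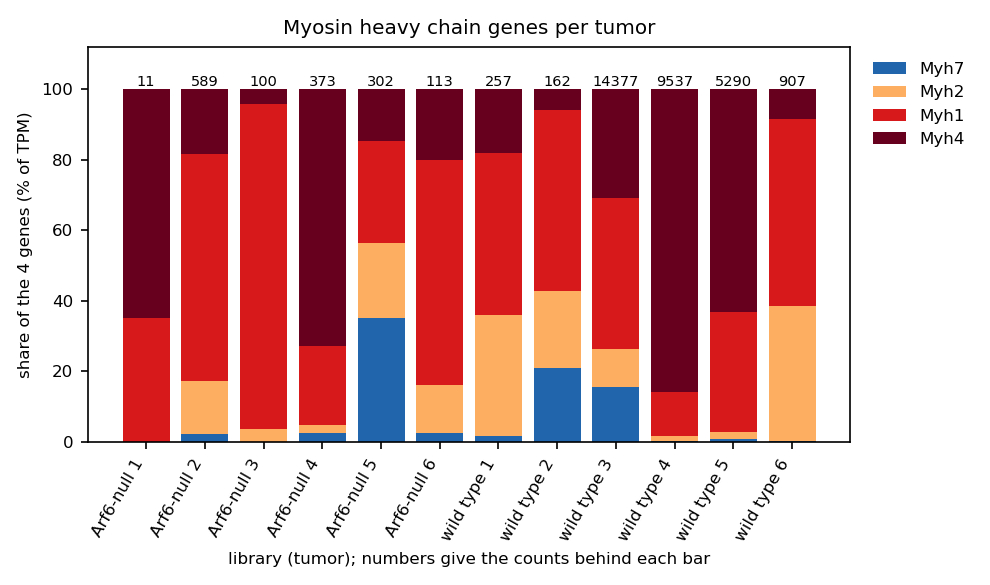
Share of the summed TPM of the 4 adult myosin heavy chain genes (stacked bars, in percent) in each tumor, Arf6-null left and wild type right, with the counts behind each bar on top. The Arf6-null bars rest on 11 to 589 counts, wild-type tumor 3 holds all 4 genes, and wild-type tumor 4 is mostly Myh4 (85.9%).

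The light chains, which stiffen and tune the myosin neck, also split into fast genes, high in wild-type tumors 3, 4 and 5, and slow genes, high in tumor 3. Mylpf, the fast regulatory light chain, had lowest, median and highest levels of 1.005, 4.76 and 12.2 CPM in Arf6-null tumors and 3.54, 44.7 and 184 CPM in wild-type tumors (log2 fold change -3.56 with SE 0.96, edgeR adjusted p = 0.0700). Myl1, the fast essential light chain, reached 6.97 CPM in Arf6-null and 58.6 CPM in wild-type tumors (log2 fold change -3.31). The groups overlapped for both. Myl2, the slow regulatory light chain, was at most 0.949 CPM in Arf6-null tumors and at 45.0 CPM in wild-type tumor 3, and no other wild-type tumor exceeded 0.690 CPM. Myl3, the slow essential light chain, had 7 counts over all Arf6-null libraries and 586 over the wild-type libraries, 552 of them in wild-type tumor 3. The myosin binding proteins Mybpc1 and Mybpc2, which clamp the thick filament, reached 4.47 and 2.10 CPM in Arf6-null tumors, against 90.5 CPM for Mybpc1 in wild-type tumor 5 and 127 CPM for Mybpc2 in wild-type tumor 4. Neither passed the test (edgeR adjusted p = 0.0743 and 0.0629).

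Per length, the 8 thin filament genes took the largest share of the TPM of the set in every tumor, 34.0% to 46.5% in Arf6-null and 38.8% to 53.7% in wild-type tumors. Acta1, whose promoter is printed above, was at 0.251, 19.6, 3.56, 13.97, 22.1 and 4.76 CPM in Arf6-null tumors 1 to 6 and at 15.8, 8.73, 778, 329, 459 and 94.4 CPM in wild-type tumors 1 to 6. Wild-type tumors 1 and 2 lay within the Arf6-null range and the other 4 above it. Acta1 had a log2 fold change of -4.70 with a SE of 1.20 (edgeR adjusted p = 0.0629). Neb, for nebulin, the ruler of the thin filament, reached 5.65 CPM in Arf6-null and 344 CPM in wild-type tumors (log2 fold change -4.84, edgeR adjusted p = 0.0629).

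Of the troponins, which make the thin filament sensitive to calcium, the fast members had log2 fold changes of larger size than the slow ones. Log2 fold changes were -5.34 for Tnnt3, -5.06 for Tnni2 and -5.08 for Tnnc2, the fast troponins T, I and C, and -2.59 for Tnnt1, -2.12 for Tnni1 and -1.57 for Tnnc1, their slow counterparts. None of the 6 passed the test (edgeR adjusted p = 0.0562 to 0.192), and the difference between fast and slow members was not tested. Tnnt3 reached 7.11 CPM in Arf6-null and 707 CPM in wild-type tumors, Tnni2 reached 3.97 and 320 CPM, and Tnnc2 reached 3.24 and 124 CPM. The slow troponins peaked in wild-type tumor 3, at 43.7 CPM for Tnnt1, 30.0 CPM for Tnni1 and 34.9 CPM for Tnnc1. Outside that tumor Tnnc1 stayed between 1.54 and 4.33 CPM in Arf6-null and between 2.08 and 5.19 CPM in wild-type tumors. In wild-type tumors 4 and 5, with their high muscle sums, it was at 2.86 and 5.19 CPM. Tnnc2 shares 592 exon bases with Ube2c, a cell cycle gene on the opposite strand.

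Fast-to-slow ratios of paired genes, on the TPM scale, were lower in wild-type tumor 3 than in wild-type tumors 4 and 5. Tnnt3 over Tnnt1 lay between 1.70 and 5.05 in the 6 Arf6-null tumors and was 6.02 in wild-type tumor 3, 68.3 in tumor 4 and 182 in tumor 5. Tnni2 over Tnni1 was 0.714 to 8.05 in Arf6-null tumors and 6.37, 34.1 and 248.6 in the same wild-type tumors. Tnnc2 over Tnnc1 was 4.27, 37.9 and 31.2 in these tumors, so tumors 4 and 5 lay close together for this pair. Myh4 over Myh7 was 8.42, 29.1 and 0.421 in Arf6-null tumors 2, 4 and 5, those with at least 10 counts of both genes. In wild-type tumors 3, 4 and 5 it was 1.97, 415 and 69.5. Wild-type tumor 6 lay above tumor 3 for the troponin pairs, at 11.4 (Tnnt3), 10.3 (Tnni2) and 7.29 (Tnnc2).

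Summed over the 14 fast genes, TPM in Arf6-null tumors 1 to 6 was 12.1, 86.3, 25.7, 99.5, 66.7 and 33.0, and in wild-type tumors 1 to 6 it was 71.3, 39.5, 2847, 2033, 4549 and 236. Summed over the 6 slow genes, TPM in Arf6-null tumors was 11.5, 11.5, 11.1, 16.7, 18.999 and 7.88, and in wild-type tumors 14.5, 17.9, 402, 21.7, 30.1 and 14.6. Wild-type tumor 3 was thus the one tumor with a slow sum far above the rest, while 3 tumors had high fast sums. The ratio of the fast to the slow sum was 1.05 to 7.48 in Arf6-null tumors and 4.93, 2.21, 7.08, 93.6, 151 and 16.2 in wild-type tumors 1 to 6. Wild-type tumor 3 lay within the Arf6-null range of this ratio although its fast sum exceeded the highest Arf6-null sum.

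**Figure D4:**
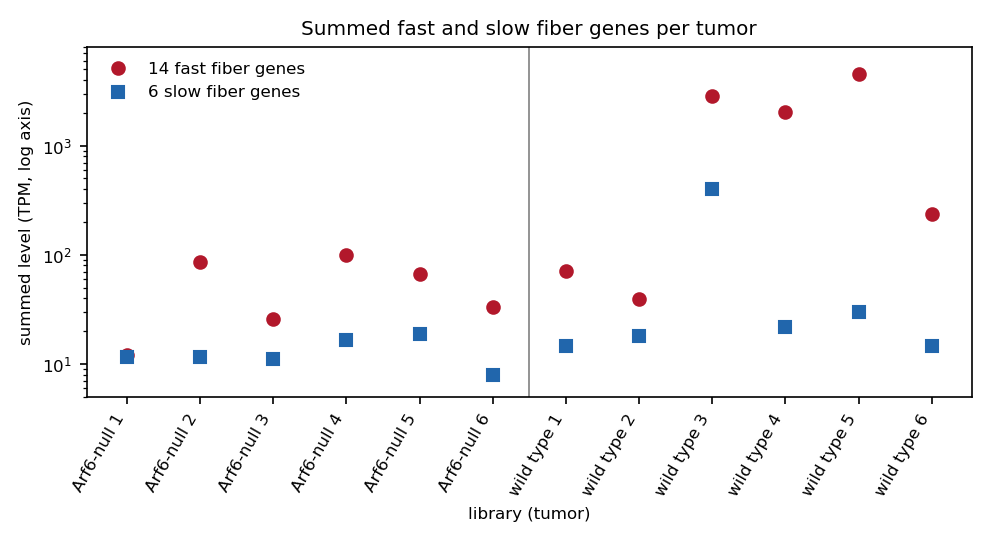
Summed TPM of 14 fast fiber genes (red circles) and 6 slow fiber genes (blue squares) per tumor on a log axis, Arf6-null left and wild type right of the line. Fast sums reach 2033 to 4549 TPM in wild-type tumors 3, 4 and 5, and the slow sum exceeds 100 TPM in wild-type tumor 3 only, at 402 TPM.

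The Z-disc and scaffold genes, which anchor and align the filaments, were high in the same wild-type tumors. Ttn, for titin, the spring that spans the sarcomere, had lowest, median and highest levels of 1.005, 4.98 and 8.73 CPM in Arf6-null tumors and 2.32, 57.2 and 348 CPM in wild-type tumors (log2 fold change -4.44 with SE 1.16, edgeR adjusted p = 0.0670). Des, the intermediate filament that ties Z-discs together, was at 1.36 to 25.2 CPM in Arf6-null and 7.43 to 544 CPM in wild-type tumors (log2 fold change -3.57, edgeR adjusted p = 0.0844). Des is also expressed in smooth muscle and pericytes, and wild-type tumors 1 and 2 lay inside the Arf6-null range. Actn2 and Actn3, the alpha-actinins that cross-link actin at the Z-disc, reached 1.56 and 6.83 CPM in Arf6-null tumors against 59.6 and 101 CPM in wild-type tumors. Of the other members with this role, Nrap, Myoz1, Tcap, Xirp2, Klhl41 and Smpx had log2 fold changes of -4.20, -4.07, -5.36, -4.68, -4.10 and -4.06, with adjusted p-values of 0.0560 to 0.0680 (edgeR). Xirp2 peaked at 124 CPM in wild-type tumor 3, where the other 5 peaked in tumor 5.

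Of the calcium genes, the pump gene Atp2a1 was at 0.553, 8.90, 0.564, 7.33, 5.79 and 1.23 CPM in Arf6-null tumors 1 to 6 and at 5.25, 2.81, 262, 238, 907 and 13.1 CPM in wild-type tumors 1 to 6. Wild-type tumors 1 and 2 were again inside the Arf6-null range. Atp2a1 had a log2 fold change of -5.86 with a SE of 1.49 (edgeR adjusted p = 0.0629), and 763 exon bases are shared with Rabep2 on the opposite strand. Ryr1, the calcium release channel, reached 4.93 CPM in Arf6-null and 231 CPM in wild-type tumors. Cacna1s, the voltage sensor that opens it, reached 0.791 and 16.0 CPM. Trdn, for triadin, which tethers the calcium store to the channel, reached 0.588 and 38.2 CPM, and Casq1, for the calcium-storing calsequestrin, reached 1.07 and 33.2 CPM. None of these 4 passed the test (edgeR adjusted p = 0.0560 to 0.0727).

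Among the energy genes, Ckm, for muscle creatine kinase, was at 0.392 to 3.17 CPM in Arf6-null and 0.728 to 213 CPM in wild-type tumors (log2 fold change -5.68 with SE 1.30, edgeR adjusted p = 0.0562). Pygm, for muscle glycogen phosphorylase, reached 2.15 and 120 CPM with an edgeR adjusted p of 0.0528. Pgam2, a muscle enzyme of glycolysis, and Mb, for oxygen-binding myoglobin, had log2 fold changes of -5.03 and -4.74. Eno3, the muscle enolase, had a base level in every tumor, 7.82 to 11.8 CPM in Arf6-null and 8.50 to 50.7 CPM in wild-type tumors. Its log2 fold change of -1.54 with a SE of 0.36 (edgeR adjusted p = 0.0580) was the smallest of the set. In all, 21 of the 42 genes share exon bases with a gene on the opposite strand.

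Other muscle genes were read from lists that hold no gene of the set. Of 28 further sarcomere genes, 23 were tested and 0 called in either direction, with 22 lower at an unadjusted p under 0.05 (12.4% of all genes were lower at that limit) and a median log2 fold change of -3.27. The 2 with the smallest p were Myot (myotilin, log2 fold change -5.63, edgeR adjusted p = 0.0566) and Lmod2 (leiomodin, -5.35, edgeR adjusted p = 0.0591). Of 17 coupling and junction genes 14 were tested and 0 called, with a median log2 fold change of -1.15. Within that list Srl (sarcalumenin, a calcium store protein) had -2.76 and Chrna1, a subunit of the acetylcholine receptor at the nerve contact, had 1.98, the opposite sign. Chrna1 lay between 221 and 746 CPM in Arf6-null and between 48.4 and 263 CPM in wild-type tumors (edgeR adjusted p = 0.0560). In wild-type tumors 3, 4 and 5 it was at 69.5, 63.0 and 208 CPM, and its highest wild-type value of 263 CPM was in tumor 2.

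Of 13 other muscle energy genes 8 were tested and 0 called, with Cox6a2 and Slc2a4 at log2 fold changes of -4.24 and -3.95. Of 12 myogenic regulators and satellite cell genes 5 were tested and 0 called, with Mef2c at -1.87 and Myf6 at -4.19. At an unadjusted p under 0.05, 7 of the 14 coupling genes, 3 of the 8 energy genes and 3 of the 5 regulators were lower, beside 12.4% of all genes, while 1 coupling and 1 energy gene were higher. Of 7 embryonic and neonatal muscle genes 6 were tested and 0 called, with none at an unadjusted p under 0.05 and a median log2 fold change of -0.86. The embryonic troponin Tnnt2 was at 0.267 to 3.995 CPM in Arf6-null and 1.97 to 5.58 CPM in wild-type tumors. Myl4, an embryonic light chain with the next smallest p of that list (edgeR adjusted p = 0.432), was at 1.66 to 7.13 CPM in Arf6-null and 2.31 to 7.94 CPM in wild-type tumors. The neonatal myosin Myh8, named after its values were seen, reached 0.858 CPM in Arf6-null and 2.12 CPM in wild-type tumors.

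Markers of other cell types were counted beside the set. Heart markers Nppa and Myl7 were at most 0.0331 and 0.0662 CPM in any tumor, Mybpc3 was at 0 in wild-type tumor 3, and Myh6 reached 10.4 CPM in that tumor. Of 7 heart markers 2, Nppb and Tnni3, were tested and 0 called. Nppb lay between 38.7 and 486 CPM in Arf6-null and between 8.94 and 68.2 CPM in wild-type tumors (edgeR adjusted p = 0.0566), and Tnni3, the cardiac troponin I, between 0.627 and 2.85 CPM and between 1.46 and 4.81 CPM. Of 7 tendon markers 6 were tested and 1, Tnmd, was called lower (log2 fold change -6.36 with SE 1.02, edgeR adjusted p = 0.0226), with at most 0.151 CPM in Arf6-null and at least 0.410 CPM in wild-type tumors. Fmod, a matrix protein of tendon, had a log2 fold change of -5.05 (edgeR adjusted p = 0.0545). The tendon sum was 23.2 to 99.4 CPM in Arf6-null and 85.4 to 843 CPM in wild-type tumors. It was 813, 823, 294, 843, 100.3 and 85.4 CPM in wild-type tumors 1 to 6, so it did not order the tumors as the muscle sum did.

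Fat cell markers summed to 22.6 to 99.4 CPM in Arf6-null and 19.7 to 145 CPM in wild-type tumors, smooth muscle markers to 75.6 to 169 and 98.2 to 321 CPM, and fibroblast markers to 2304 to 15962 and 6529 to 23736 CPM. Endothelial markers summed to 95.2 to 366 CPM in Arf6-null and 186 to 459 CPM in wild-type tumors, and Schwann cell markers to 72.9 to 107 and 73.1 to 148 CPM. Skin keratinocyte markers summed to 3.02 to 22.2 CPM in Arf6-null and 2.68 to 6.65 CPM in wild-type tumors. Of these 6 lists, 0 genes were called in either direction (edgeR), and at an unadjusted p under 0.05, where 12.4% of all genes were lower, the smooth muscle list had 2 of 7 tested genes lower, the fibroblast list 4 of 10, the fat list 2 of 5, the endothelial list 4 of 8, the Schwann list 3 of 7 and the keratinocyte list 0 of 2. The 2 genes with the smallest p had log2 fold changes of -1.12 and -1.61 in the smooth muscle list (Mylk and Acta2), -2.40 and -0.82 in the fibroblast list (Postn and Pdgfra), -2.56 and -2.87 in the fat list (Adipoq and Cidec) and -1.28 and -1.14 in the endothelial list (Tie1 and Kdr). In the keratinocyte list they were 0.94 and -0.15 (Krt1 and Krt10), and Mbp in the Schwann list had -0.96. The part of these cell types in the result was not tested. The summed Y-linked genes were 201, 184, 205, 148, 218 and 0.444 CPM in Arf6-null tumors 1 to 6 and 22.3, 203, 0, 248, 0.261 and 0.0694 CPM in wild-type tumors 1 to 6, so they were not balanced between the genotypes. With Y-linked expression as a covariate, 0 of the 40 genes of the set were called (edgeR, 0.105% of all genes called lower).

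Set against the summed contractile genes, wild-type tumors 3, 4 and 5 each had a mix of their own. Per 1000 CPM of the set, wild-type tumors 3, 4 and 5 had 186, 127 and 79.8 CPM of Acta1, and of Pvalb 22.8, 15.3 and 2.69. Atp2a1 ran the other way, at 62.7, 91.9 and 158, as did Tnnt3 at 45.2, 63.4 and 123. In tumor 3, 10 genes of the set were at least 2-fold higher than in both other tumors, among them Myh1 and the 6 slow genes, and 0 were at least 2-fold lower. In tumor 4, 4 were higher by this measure (Myh4, Mybpc2, Actn3 and Eno3) and 2 lower (Myl3 and Actn2). In tumor 5, 5 were lower (Myh2, Myl2, Mybpc2, Tnni1 and Pvalb) and 0 higher, with 5 genes just under the limit, at 1.8-fold to 2-fold (Neb, Ryr1, Tnnt3, Tnni2 and Cmya5). Of 77 other skeletal muscle genes, 4 were at least 2-fold higher and 3 lower in tumor 3, 5 higher and 3 lower in tumor 4, and 16 higher and 11 lower in tumor 5. No count minimum was set for these comparisons. Myl3 in tumor 4 rested on 4 counts, Myl2 in tumor 5 on 8, and Pax7 on 5, 2 and 1 in tumors 3, 4 and 5. The following genes were chosen after their values were seen. Trim63, a ubiquitin ligase of muscle wasting, was at 3.75, 6.12 and 26.1 CPM per 1000 in wild-type tumors 3, 4 and 5, and the muscle transcription factors Myod1 and Myf6 were at 0.265, 0.406 and 1.48 and at 1.03, 1.70 and 5.33. Each tumor is a single library, so these differences have no replicate check.

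**Figure D5:**
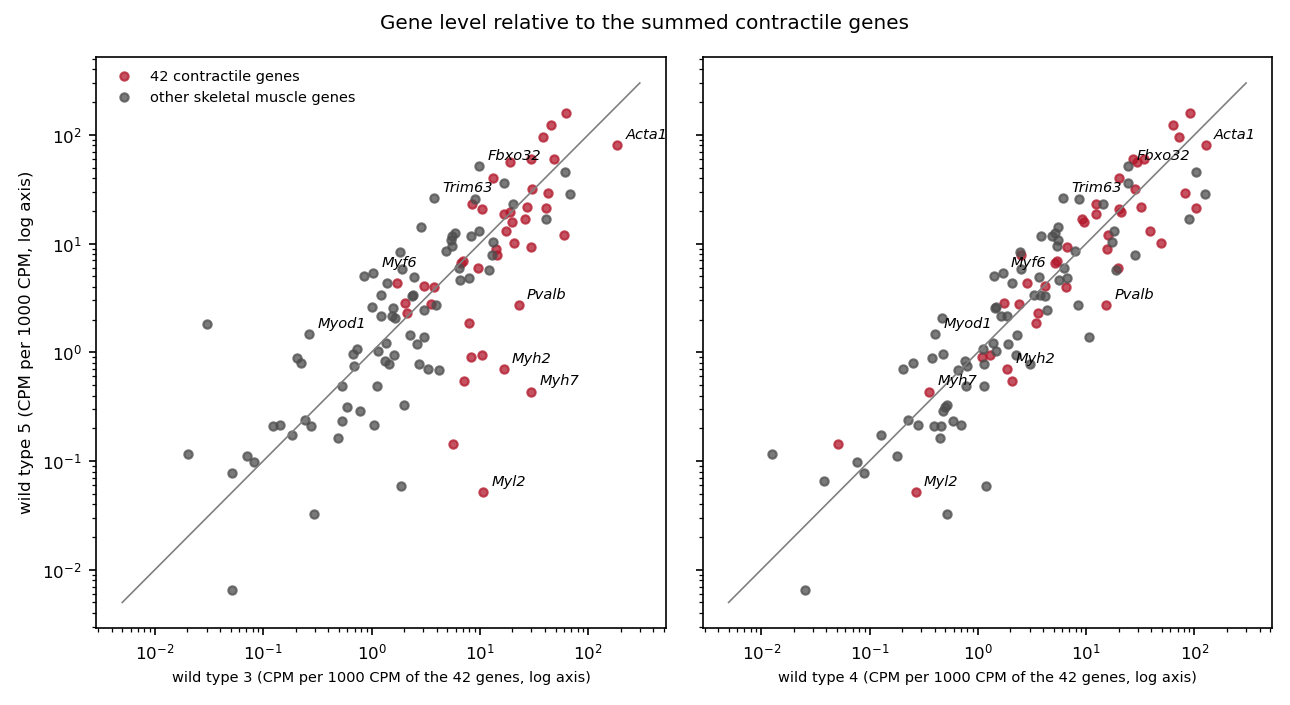
Level of each skeletal muscle gene per 1000 CPM of the 42 summed genes in wild-type tumor 5 (vertical) against wild-type tumor 3 (left panel) and wild-type tumor 4 (right panel), log axes, red for the 42 genes and grey for 77 other muscle genes, with a line of equality and genes at 0 left out. Trim63, Myod1 and Myf6 lie above the line and Pvalb, Myh2, Myl2 and Acta1 below it in both panels.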

How the data were processed

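Bulk RNA-seq was made from 12 tumors. Direct-zol kits served for RNA and TruSeq Stranded mRNA kits for the libraries, per the labels' protocols. The deposited table holds raw counts per gene, made by the authors with STAR 2.7.3a and featureCounts 1.6.3 on GRCm38 (mm10), per the submitters' processing notes, which also name DESeq2 1.26.0. Not given in the sources used here are the annotation release, the strand setting of the counter and its treatment of reads with several matches. Groups came from the labelled genotype.

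Of 55487 identifiers, 55227 had a symbol. Genes were filtered with filterByExpr at 10 counts, which left 16225 genes with 99.9% of the counts, scaled by trimmed mean of M values and compared by the quasi-likelihood method of edgeR 4.0.16 in R 4.3.3, Arf6-null over wild type, with Benjamini-Hochberg adjustment over all tested genes and a threshold of 0.05. SEs were derived from the F statistic. CPM and TPM were computed here from the counts, CPM with the scaled library totals and TPM with the exon length of each gene. No pair of libraries agreed within sampling noise (lowest chi-square per degree of freedom 84.6 over 66 pairs). Functions were tested on simulated counts.

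The 42 genes and all lists were chosen with earlier results of these data known. All 42 genes are named, with Arf6, Braf and Cdkn2a, up to 4 called genes of each other list, and in any case the 2 with its smallest p. A gene that this rule names is not reported here. Neither Braf (edgeR adjusted p = 0.503) nor Cdkn2a (0.592) passed the test. Alternatives were other scalings (median of ratios, upper quartile, and scaling without muscle genes), no low-count filter, a minimum of 10 CPM in 6 libraries, DESeq2 1.42.0, limma-voom 3.58.1 with and without sample weights, exact permutation, Y-linked expression as covariate, leaving out each library, a threshold of 0.1 and a 2-fold limit. Protein sequences were not used here.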

Additional observations from a re-analysis of the deposited data

Results flagged for a closer look

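In 90 sets of 6 tumors of one genotype, 8 held a tumor far from the other 5. For independent sets, chance gives such a gap in about 1 of 20. These sets share the same tumors and related genes, so the 8 cannot be weighed against that rate. All 8 were of slow fiber genes or their sum, and in wild-type tumor 3 or Arf6-null tumor 5. In log2(CPM + 1), Arf6-null tumor 5 was at 1.94 for Myh7, with the other Arf6-null tumors between 0 and 0.515, and at 0.125 for Myl3 (others 0 to 0.0422), the second on 4 counts. On the same scale, wild-type tumor 3 was at 6.96 for Myh7, with the other wild-type tumors between 0.0968 and 1.81. It was at 5.52 for Myl2 (others 0.221 to 0.757), at 4.62 for Myl3 (others 0.0924 to 0.865), at 5.48 for Tnnt1 (others 1.35 to 2.68) and at 5.17 for Tnnc1 (others 1.62 to 2.63). The summed slow level of that tumor was 8.66 in log2(TPM + 1), with the others between 3.95 and 4.96. No cause was tested.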

How the results depend on the processing

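No paired analysis was possible because the labels link no Arf6-null tumor with a particular wild-type tumor, although the design text calls them matched. The 4 calls held under the other 3 scalings (0.555% to 0.758% of all genes lower) and with a 2-fold limit (0.431%). The number of called genes of the set was 0 without a filter (0.165%) and 0 of 3 tested with the 10 CPM filter (0.583%). It was 37 of 42 with DESeq2 (3.76% of all genes lower), 0 with limma-voom (0.586%) and 2 with sample weights (2.98%). With the exact permutation test (smallest possible p 0.00216) it was 0, with 0.0% of all genes called lower. It was 0 with the Y-linked covariate (0.105%) and 36 under a threshold of 0.1 (4.43%). Simulated counts were drawn gene by gene from a count model with the dispersions estimated by edgeR. They held no tumors in which related genes are high together, so their error rates need not hold for the set. In simulated counts with 200 changed genes, 64 of 199 DESeq2 calls and 4 of 110 edgeR calls were false. With 0 genes changed, DESeq2 called 10 genes and edgeR 0. The permutation test called 0.0% of the simulated 4-fold changes, so its 0 calls here say nothing about the set. At an unadjusted p under 0.05 (edgeR), all 40 were lower, with 12.4% of all genes. Leaving out 1 library gave 0 to 35 calls. The number was 35 of 41 without wild-type tumor 2 (2.32% of all genes lower) and 5 without wild-type tumor 5 (1.71%). Without Arf6-null tumor 6 it was 4 (2.11%), and without any other single library 0 (0.0546% to 0.391%). All 480 log2 fold changes of these fits stayed negative. Over all genes, 186 were called (95 higher, 91 lower), and 2241 with DESeq2, 195 with limma-voom (95 of them lower) and 996 with sample weights. There were 0 by permutation, 31 with the Y-linked covariate and 25 to 766 with 1 library left out. A threshold of 0.1 gave 1359 and a 2-fold limit 106. Without wild-type tumors 3, 4 and 5 (chosen after seeing the data) the counts were 35 over all genes and 0 of the set, and the log2 fold changes of Myh4, Myh7 and Actn3 turned to 0.59, 0.20 and 0.12. The cause of these differences between settings was not tested. Of the scalings, only the one without muscle genes was applied to the TPM sums, which use raw counts and lengths.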
